A study of Mus musculus with 8 samples.

Results

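The early lymphoid priming genes are 10 genes that mouse blood progenitors switch on in steps on the way from a multipotent cell to a committed B cell precursor. They were taken by name from the deposited count table, which held 1 row for each, so that 10 of 54532 gene identifiers are described. In the order from multipotent to committed they are Flt3, Dntt, Il7r, Rag1, Rag2, Ighm, Vpreb1, Blnk, Ebf1 and Pax5. RNA came from bone marrow LSK cells of C57BL/6 mice, the sorted Lin-Sca-1+c-Kit+ fraction that holds blood stem cells and multipotent progenitors. The 3 libraries of the AML1/ETO group carry the genotype label Runx1-Runx1t1, the fusion that the t(8;21) translocation makes in acute myeloid leukaemia. The 5 control libraries are labelled WT. Mice of both groups were injected 4 times with poly(I:C), an RNA mimic that induces interferon, at 5 mg/kg, and their cells were sorted 4 weeks after that. The labels say nothing of the allele, its promoter, any recombinase or the age of the mice. Nor do the labels tie each library to an animal of its own, so p-values measure only the spread between these libraries, which may be technical.

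As background, lymphoid fate is opened before it is chosen. Multipotent progenitors that carry the FLT3 receptor begin to transcribe Dntt, the recombinase genes and unrearranged immunoglobulin heavy chain, and then depend on IL-7 receptor signals. E proteins, Ikaros, PU.1 and RUNX1 act on these genes, and EBF1 followed by PAX5 fixes the B cell choice. The AML1/ETO protein keeps the DNA-binding domain of RUNX1 and joins it to the corepressor ETO.

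The promoters of 4 of these genes are shown because the first pair stood higher and the second pair had no read in AML1/ETO libraries. They are RefSeq sequences of the build GRCm38.p6, the 250 bases upstream of the annotated start, 5′ to 3′ on the gene's strand. RefSeq starts can differ from the ends of the GENCODE gene coordinates given below. The Vpreb1 window lies inside that gene's span. For Rag1, the bases checked after the start were found in no GENCODE transcript of the gene. Capitals mark matches to the RUNX motifs TGTGGT and TGCGGT, the E-boxes CAGGTG and CAGCTG that E proteins bind, and the ETS motif AGGAAGT, searched on both strands. The palindromic EBF motif was searched too and matched none of the members' promoters.
Flt3 (chr5:147400490-147400739, minus strand): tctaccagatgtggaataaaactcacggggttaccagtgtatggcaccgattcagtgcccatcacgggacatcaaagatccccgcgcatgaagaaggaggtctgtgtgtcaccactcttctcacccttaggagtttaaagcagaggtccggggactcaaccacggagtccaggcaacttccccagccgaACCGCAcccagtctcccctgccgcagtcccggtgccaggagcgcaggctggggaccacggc
Dntt (chr19:41029025-41029274, plus strand): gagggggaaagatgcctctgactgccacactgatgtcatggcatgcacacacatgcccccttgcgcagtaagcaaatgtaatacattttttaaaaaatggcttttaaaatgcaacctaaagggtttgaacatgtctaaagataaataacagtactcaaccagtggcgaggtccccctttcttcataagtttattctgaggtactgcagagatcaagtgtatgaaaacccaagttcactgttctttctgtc
Rag1 (chr2:101649533-101649782, minus strand): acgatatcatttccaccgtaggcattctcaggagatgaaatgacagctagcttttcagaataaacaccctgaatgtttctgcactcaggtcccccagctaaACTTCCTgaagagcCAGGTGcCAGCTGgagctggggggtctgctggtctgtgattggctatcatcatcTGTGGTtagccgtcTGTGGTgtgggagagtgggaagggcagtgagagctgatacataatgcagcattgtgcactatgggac
Vpreb1 (chr16:16869256-16869505, minus strand): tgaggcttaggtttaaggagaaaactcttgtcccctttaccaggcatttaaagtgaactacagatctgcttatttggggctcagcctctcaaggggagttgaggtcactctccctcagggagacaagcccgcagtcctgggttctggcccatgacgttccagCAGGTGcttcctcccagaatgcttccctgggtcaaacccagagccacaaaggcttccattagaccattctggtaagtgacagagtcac

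Rag1 carried 2 RUNX matches, at 81 to 76 and 67 to 62 bases upstream of the start, as well as 2 E-boxes and 1 ETS match. In Flt3 there was 1 RUNX match, read on the opposite strand as ACCGCA, at 61 to 56 bases upstream. Vpreb1 had 1 E-box and no RUNX match, and Dntt had none of these letters in this window. Of 32851 RefSeq promoters of the same length, 18.6% held either RUNX motif, 27.7% either E-box, 7.69% the ETS motif and 0.779% the EBF motif. Among the 9 members with a promoter entry, Ebf1 also held a RUNX match, Blnk an E-box and an ETS match, and Il7r an ETS match. A match describes letters only, and binding was not measured.

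The 8 libraries held 14693080 to 17527043 counted reads. Values below are CPM, counts relative to the library total after scaling by TMM factors, and a gene passed at a Benjamini-Hochberg adjusted p under 0.05 in edgeR's quasi-likelihood test over 15009 genes. The genotype check behaved as labelled: Runx1t1, the ETO partner, stood at 53.9 to 123 CPM in the AML1/ETO libraries and at 1.58 to 7.68 CPM in the controls. The sort marker genes Kit and Ly6a, which encodes Sca-1, had reads in all 8 libraries. Ly6a was low in the controls, at 8.26 to 23.4 CPM, against 221 to 921 CPM in AML1/ETO. Markers of other cells moved with the groups. For comparison, 11.6% of all genes tested rose and 14.2% fell. Of 7 tested mast cell and basophil genes 5 rose and 1 fell, and the summed level of the whole list of 11 was 2504 to 6796 CPM in AML1/ETO and 33.8 to 87.5 CPM in the controls. None of 8 tested neutrophil genes rose and 3 fell, and the 10 listed summed to 0.0654 to 68.3 against 125 to 308 CPM, and none of 9 tested macrophage and monocyte genes rose and 5 fell, with a sum over 12 of 49.4 to 74.1 against 172 to 351 CPM. Of 14 blood stem cell genes 8 rose and 4 fell, with sums of 1977 to 3208 against 908 to 1216 CPM. Xist reads numbered 28559 to 33151 per AML1/ETO library, against 0 to 111 per control library. Ddx3y, on the Y chromosome, was unread in AML1/ETO but had 3688 to 5038 reads per control library. By these genes AML1/ETO libraries read as female and control libraries as male. Genotype and sex therefore cannot be told apart for any gene, autosomal ones included. The part of these differences in the results below was not tested. In bulk samples, fewer cells of a type and less RNA per cell cannot be told apart either.

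The 10 genes split along their order. The 2 most multipotent, Flt3 and Dntt, rose in AML1/ETO, and 5 later genes, Rag1, Ighm, Vpreb1, Ebf1 and Pax5, fell and had no AML1/ETO read at all. Il7r, Rag2 and Blnk did not pass. Over all genes tested, 11.6% were called higher and 14.2% lower, or 25.7% in either direction. All 10 genes passed the filter on low counts, but 8 of them would not have passed on the AML1/ETO libraries alone, so a gene that was low there had to be high in the controls to be tested. The members were picked with earlier results of these data known, and the split is therefore a description. Groups did not overlap for 1 gene that rose, Flt3, and 4 that fell, Rag1, Ighm, Ebf1 and Pax5. The same was true of 14.1% of all genes tested in the upward and 17.5% in the downward direction.

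**Figure D1:**
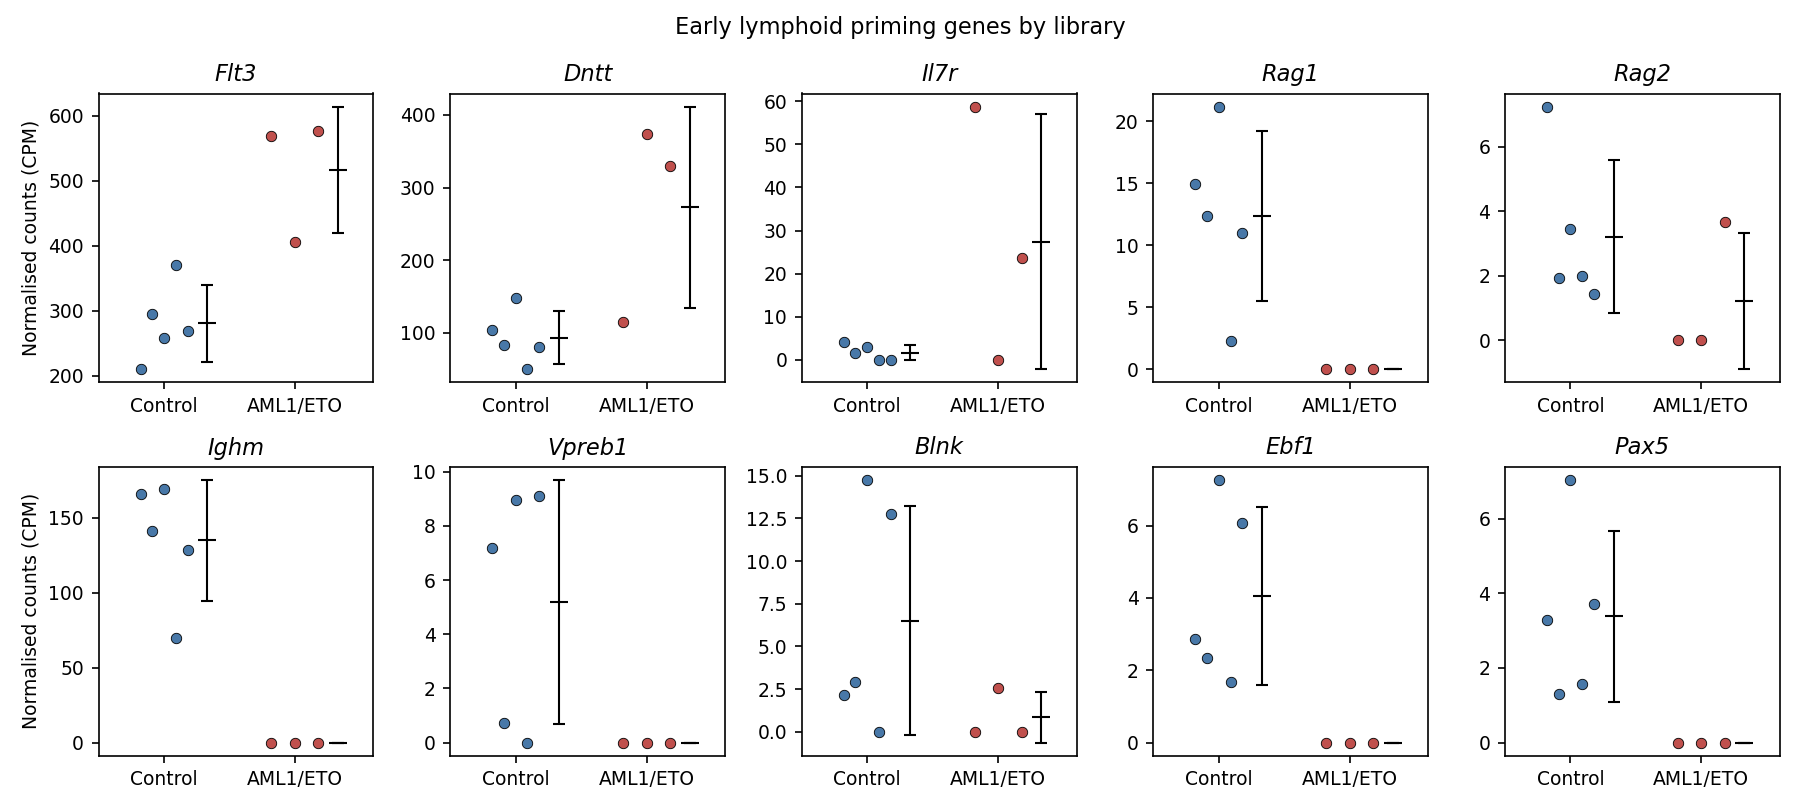
Normalised counts (CPM, linear axes that differ between panels and need not start at 0) of the 10 genes in the 5 control and 3 AML1/ETO libraries; each point is a library, and the bar beside it is the mean ± SD. Flt3 points of AML1/ETO, at 405 CPM or more, lie above every control point, while Rag1, Ighm, Vpreb1, Ebf1 and Pax5 lie at 0 in all 3 AML1/ETO libraries.

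Flt3 (ENSMUSG00000042817; mm10 chromosome 5, 147330741 to 147400489, minus strand) encodes the receptor tyrosine kinase whose ligand drives multipotent cells toward lymphoid and dendritic fates. It stood at 569, 405 and 577 CPM in AML1/ETO libraries 1, 2 and 3. In control libraries 1 to 5 it stood at 210, 295, 259, 371 and 270 CPM. Every AML1/ETO library was above every control, with the closest pair being AML1/ETO library 2 and control library 4. The means were 517 ± 96.8 CPM (SD, n = 3) and 281 ± 58.9 CPM (SD, n = 5), a 1.84-fold rise (log2 fold change 0.88, SE 0.19, edgeR adjusted p = 0.00549). The unnamed antisense gene Gm26597 overlaps Flt3 but had at most 16 reads in a library.

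Dntt (ENSMUSG00000025014; chromosome 19, 41029275 to 41059525, plus strand) encodes terminal deoxynucleotidyl transferase, the polymerase that adds untemplated bases to recombining receptor genes. Its AML1/ETO values were 115, 374 and 330 CPM, and its control values 104, 83.7, 148, 50.01 and 79.8 CPM. AML1/ETO libraries 2 and 3 stood above all controls, whereas library 1 lay inside the control range, below control library 3. Dntt and Flt3 are also read in plasmacytoid dendritic cells and their precursors. Of 10 tested genes of that cell type 2 rose and 3 fell, where 11.6% and 14.2% of all genes tested did. The 14 listed summed to 446 to 498 CPM in AML1/ETO and 532 to 684 CPM in the controls. The 2 that rose were Irf7 and Runx2. Those that fell included Irf8, with means of 12.6 CPM in AML1/ETO and 75.0 CPM in the controls, and Tcf4, with 114 and 194 CPM. Siglech, a defining marker, was near 0 in both groups, with no AML1/ETO read and 0, 26, 20, 7 and 0 reads in control libraries 1 to 5. The part of such cells in the values of Dntt and Flt3 was not tested. Dntt rose 2.93-fold, to 273 ± 138 CPM (SD, n = 3) from 93.2 ± 36.4 CPM (SD, n = 5; log2 fold change 1.55, SE 0.37, edgeR adjusted p = 0.00947). When only libraries 1 to 3 of each group were fitted, it did not pass (adjusted p = 0.0631, in a range from 0.000166 to 0.0701 over the alternatives).

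Il7r (ENSMUSG00000003882; chromosome 15, 9505788 to 9530176, minus strand) encodes the alpha chain of the IL-7 receptor, whose signals sustain common lymphoid progenitors. It had 776, 0 and 361 reads in the AML1/ETO libraries and 71, 26, 53, 0 and 0 in the controls. In AML1/ETO libraries 1 and 3 it was therefore at 58.8 and 23.6 CPM, above the highest control at 4.15 CPM, and AML1/ETO library 2 had none. Zeros of this kind were rare: where the mean of the other AML1/ETO libraries predicted 300 to 900 reads, 0.119% of genes were at 0 in AML1/ETO library 2. Il7r did not pass, at 27.5 ± 29.6 CPM (SD, n = 3) against 1.72 ± 1.82 CPM (SD, n = 5; log2 fold change 3.99, SE 1.55, edgeR adjusted p = 0.0791). The value leaned on AML1/ETO library 1: the ratio of means was 15.98-fold with it and 6.87-fold without it (log2 fold change 2.77, edgeR adjusted p = 0.291). Il7r did pass without AML1/ETO library 2 (adjusted p = 0.0160) and with no filter on low counts (adjusted p = 0.0298). Over the alternatives its adjusted p reached 0.553.

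Rag1 and Rag2 encode the 2 subunits of the recombinase that cuts antigen receptor genes, and the genes are neighbours on chromosome 2. Rag1 (ENSMUSG00000061311; 101638282 to 101649501, minus strand) was unread in all AML1/ETO libraries and had 255, 210, 385, 39 and 191 reads in control libraries 1 to 5. The groups did not overlap, although control library 4 was far below the other controls, at 2.27 CPM against 10.96 to 21.2 CPM. The control mean was 12.3 ± 6.85 CPM (SD, n = 5), so that Rag1 was at least 60.5-fold lower with a floor of 3 reads per library (edgeR adjusted p = 0.000505). With limma-voom it did not pass (adjusted p = 0.0727, the highest over the alternatives, which start from 9.17e-11). Rag2 (ENSMUSG00000032864; 101624718 to 101632529, plus strand) had 0, 0 and 56 reads in AML1/ETO and 124, 33, 63, 34 and 25 in the controls. AML1/ETO library 3 was thus inside the control range, and Rag2 did not pass (1.22 ± 2.11 against 3.21 ± 2.38 CPM; log2 fold change -1.39, SE 1.71, edgeR adjusted p = 0.624). Without AML1/ETO library 3 no AML1/ETO read was left, and the adjusted p was 0.0196, the lowest over alternatives that reach 0.927. The gene B230118H07Rik overlaps both Rag genes, on the strand opposite to Rag2. By replicate order it was counted 171, 208 and 277 times with AML1/ETO, where Rag2 stood at 0, 0 and 56. For the controls its counts were 98, 87, 253, 210 and 204. Any spill of its reads into Rag2 was not tested. Whether the counting used strand is not stated in the sources, and reads of a shared stretch may not be told apart.

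Ighm (ENSMUSG00000076617; chromosome 12, 113418558 to 113422730, minus strand) is the constant region of the immunoglobulin mu heavy chain, transcribed before rearrangement as well as after it. It had 2833, 2407, 3080, 1201 and 2233 reads in control libraries 1 to 5 and none in AML1/ETO libraries 1, 2 and 3. In the controls this was 166, 141, 169, 69.9 and 128 CPM, the narrowest spread of the 7 later genes (coefficient of variation 29.8%). Ighm was at least 662-fold lower than the control mean of 135 ± 40.1 CPM (SD, n = 5; edgeR adjusted p = 1.15e-06), and its adjusted p stayed at 0.0221 or less in each of the 19 alternatives. Of 16 mature B and plasma cell genes, 3 fell (37.5% of those tested, against 14.2% of all genes tested), 5 did not pass and 8 were not tested. Their summed level was 252 to 328 CPM in AML1/ETO and 371 to 411 CPM in the controls, most of it Xbp1. Ms4a1, the B cell antigen CD20, and the light chain genes Iglc1 and Iglc2 had no read in any of the 8 libraries. The kappa light chain Igkc had reads in control library 2 alone.

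Vpreb1 (ENSMUSG00000059305; chromosome 16, 16868403 to 16870843, minus strand) encodes the surrogate light chain part that pairs with the mu chain in the pre-B cell receptor. It had no AML1/ETO read and 123, 12, 163, 0 and 159 reads in control libraries 1 to 5. Control libraries 1, 3 and 5 carried nearly all of these reads, and control library 4 had none, so the groups overlapped at 0. It was at least 25.5-fold lower than the control mean of 5.20 ± 4.49 CPM (SD, n = 5; edgeR adjusted p = 0.0244). Vpreb1 no longer passed when AML1/ETO library 3 (adjusted p = 0.0507), control library 3 (0.0572) or control library 5 (0.0556) was left out. The alternatives spanned adjusted p of 0.000116 to 0.302. Vpreb2, a copy whose 429 coding bases differ from those of Vpreb1 at 9 positions, was read in control library 3 alone, with 96 reads. The longest stretch without a difference was 196 bases, so reads of the pair could have been shared out or dropped. Both together had 123, 12, 259, 0 and 159 reads in the controls and 0 in AML1/ETO.

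Blnk (ENSMUSG00000061132; chromosome 19, 40928927 to 40994535, minus strand) encodes the adaptor that links the pre-B cell receptor to its downstream kinases. It had 0, 41 and 0 reads in the AML1/ETO libraries and 37, 50, 268, 0 and 222 in the controls. AML1/ETO library 2, at 2.56 CPM, lay between control libraries 1 and 2, at 2.16 and 2.93 CPM, so the groups overlapped. Blnk did not pass (0.854 ± 1.48 against 6.51 ± 6.72 CPM; log2 fold change -2.91, SE 1.93, edgeR adjusted p = 0.309). Without AML1/ETO library 2, which held the group's only reads, the adjusted p was 0.0375, and elsewhere among the alternatives it was as high as 0.571.

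Ebf1 (ENSMUSG00000057098; chromosome 11, 44617317 to 45008091, plus strand) and Pax5 (ENSMUSG00000014030; chromosome 4, 44524757 to 44710487, minus strand) encode the transcription factors that specify and then fix the B cell fate. Ebf1 had 49, 40, 132, 29 and 106 reads in control libraries 1 to 5 and none in AML1/ETO. Pax5 had 56, 22, 128, 27 and 65 reads in the same controls and likewise none in AML1/ETO. Both genes were read in all 5 controls, each highest in control library 3, and neither overlapped between groups. Ebf1 was at least 19.9-fold lower than 4.05 ± 2.46 CPM (edgeR adjusted p = 0.00572) and Pax5 at least 16.6-fold lower than 3.38 ± 2.30 CPM (edgeR adjusted p = 0.00897; SD, n = 5). With any 1 library left out, the edgeR adjusted p was at most 0.0207 for Ebf1 and 0.0313 for Pax5. Neither passed when libraries 1 to 3 of each group were fitted with the replicate number as a block (edgeR adjusted p = 0.149 and 0.166).

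**Figure D2:**
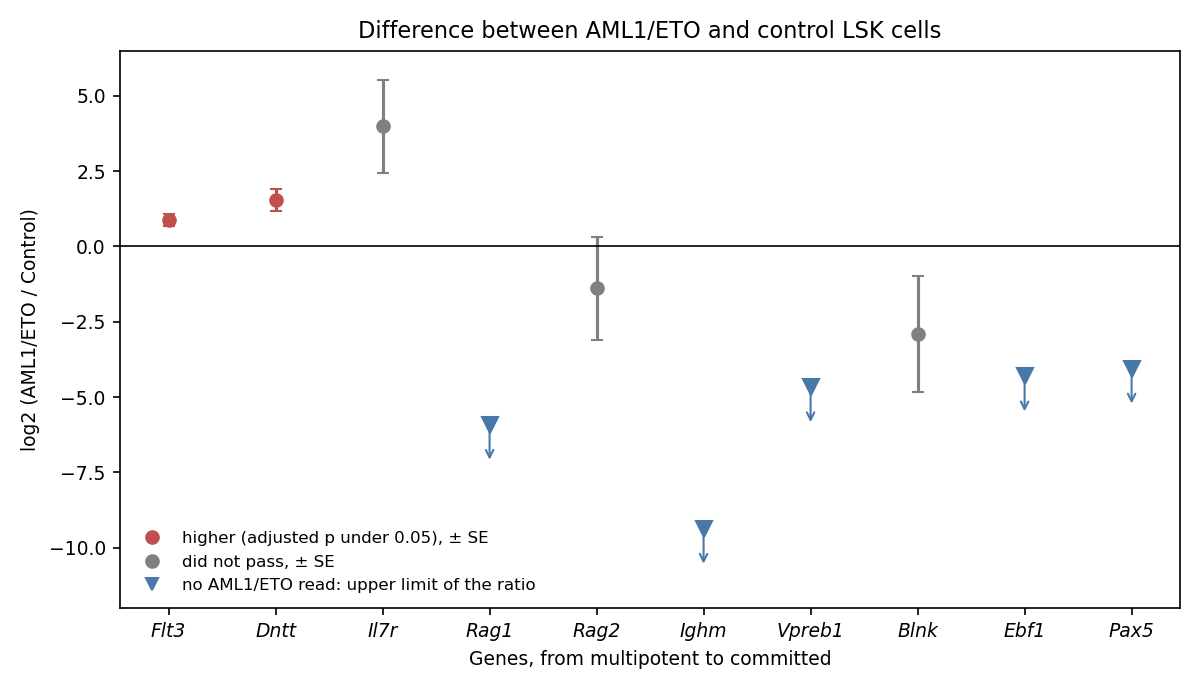
Log2 ratio of AML1/ETO to control for the 10 genes in order of lineage progression; circles are edgeR log2 fold changes with SE, and triangles are upper limits of the ratio for genes without an AML1/ETO read. Flt3, Dntt and Il7r lie above 0, at 0.88, 1.55 and 3.99, and the other 7 lie below it.

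How much a count of 0 shows depends on the level a gene has in the controls. For Ighm, 2988 genes had a control mean within 2-fold of its own, and 3 of them, Ighm included, were at 0 in all 3 AML1/ETO libraries (0.100%). Another of the 3 was the Y-linked gene Ddx3y, at a control mean of 251 CPM. For Rag1 it was 97 of 3302 genes, or 2.94%. For Vpreb1 it was 7.39%, for Ebf1 10.2% and for Pax5 12.7% of the genes of like level. The AML1/ETO libraries also missed more scarce genes than most controls: where the other libraries of the group predicted 20 to 50 reads, the share at 0 was 42.2% to 50.7% in AML1/ETO and 46.0% in control library 1, against 11.01% to 26.7% in control libraries 2 to 5. The floors used here cover counting error only, and the folds of Vpreb1, Ebf1 and Pax5 are not firm limits.

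**Figure D3:**
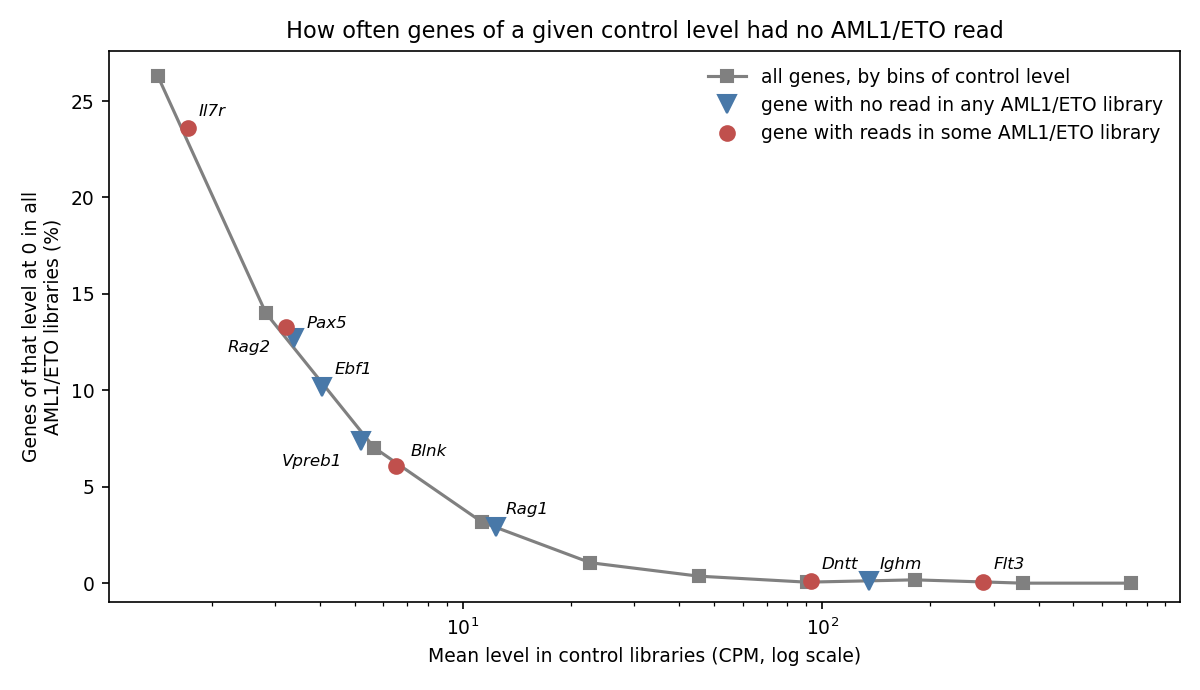
Percent of genes at 0 in all 3 AML1/ETO libraries (vertical axis) by their mean control level in CPM (horizontal axis, log scale); squares are all genes in bins of 2-fold width, and the named points place each of the 10 genes at its own level. The share falls from 26.3% at 1 to 2 CPM to 0.0519% at 64 to 128 CPM. It is 0.171% at 128 to 256 CPM, where the genes at 0 are Ighm and the Y-linked Ddx3y. Ighm thus lies where zeros were rare and Pax5 and Ebf1 where they were common.

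Levels of different genes were compared per length, as reads per base of annotated exon scaled to the same sum in each library (TPM). In the controls Ighm led at 251 ± 73.2 TPM, followed by Flt3 at 160 ± 34.4 and Dntt at 142 ± 51.2 TPM (SD, n = 5). Flt3 and Dntt did not differ beyond their spread. Vpreb1 followed at 15.1 ± 13.0 TPM, Rag1 at 6.51 ± 3.47, Blnk at 3.75 ± 3.80 and Rag2 at 3.32 ± 2.54 TPM, each within the spread of its neighbour. Ebf1 (1.44 ± 0.837 TPM), Pax5 (1.32 ± 0.848 TPM) and Il7r (1.29 ± 1.39 TPM) were the lowest and could not be ordered. In AML1/ETO cells Dntt was first at 378 ± 194 TPM and Flt3 next at 265 ± 43.1 TPM (SD, n = 3), again within their spread. Il7r followed at 18.7 ± 20.7 TPM, Rag2 and Blnk stood at 1.07 and 0.471 TPM on the reads of 1 library each, and the other 5 were at 0. Il7r thus had the lowest mean of 10 in the controls and the highest after Dntt and Flt3 in AML1/ETO, though its level there rested on 2 libraries.

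Among the controls, library 3 was the highest for Dntt, Rag1, Ighm, Blnk, Ebf1 and Pax5. Control library 4 was the lowest for Dntt, Rag1, Ighm, Vpreb1, Blnk and Ebf1 and tied for lowest for Il7r. Rag2 differed from these, being highest in control library 1 and lowest in control library 5, as did Vpreb1, highest in control library 5, and Pax5, lowest in control library 2. These orders were not tested. Without Ighm, the 6 other genes after Il7r summed to 37.7, 21.5, 62.6, 7.51 and 44.1 CPM in control libraries 1 to 5. In AML1/ETO libraries 1, 2 and 3 the same sum was 0, 2.56 and 3.66 CPM, lower than in every control. Control library 4, with the lowest control sum, was the highest control for Flt3.

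Other genes of the lymphoid pathway were read from 5 fixed lists that leave out the 10 genes above. A tested gene without an AML1/ETO read entered only through its control reads, so it could be called lower but never higher. The same holds in the marker lists above. The transcription factors held 5 such genes, Spib, Irf4, Tcf7, Lef1 and Pou2af1, all called lower. The surface and cytokine list held 2, the receptor signalling list 4 and the T and NK list 3. Of 28 tested lymphoid transcription factors 7 rose and 12 fell (25% and 42.9%, against 11.6% and 14.2% of all genes tested). The median log2 fold change was -0.37, against -0.09 for all genes. Spi1, which encodes PU.1, stood at 62.1, 61.2 and 47.7 CPM in AML1/ETO and at 312 to 424 CPM in the controls (edgeR adjusted p = 2.10e-06). Mef2c, a factor of lymphoid progenitors, fell 7.51-fold, to 66.7 ± 23.7 from 501 ± 62.2 CPM, and Runx3 fell 3.98-fold. Ikzf2 rose 6.79-fold, with 148 to 252 CPM in AML1/ETO and 24.0 to 32.5 CPM in the controls. Ikzf1, which encodes Ikaros, and Tcf3, which encodes the E proteins E12 and E47, did not pass (log2 fold change -0.25 and -0.34, edgeR adjusted p = 0.263 and 0.187). The groups of both overlapped. Chosen after their values were seen, the E protein inhibitors Id2 and Id3 rose 5.84-fold and 7.05-fold, and the chromatin organiser Satb1 rose to 231 to 296 CPM from 68.0 to 95.4 CPM. Others chosen in that way went down or did not pass. Irf4 had no AML1/ETO read and was at least 163-fold lower. Of the other E protein genes, Tcf4 fell 1.70-fold and Tcf12 did not pass (edgeR adjusted p = 0.728).

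Of 28 tested surface and cytokine signalling genes of lymphoid progenitors 11 rose and 9 fell (39.3% and 32.1%, against 11.6% and 14.2% of all genes tested). The median log2 fold change was 0.28. Jak3, the kinase that acts with the IL-7 receptor, stood at 844 to 1039 CPM in AML1/ETO and 254 to 357 CPM in the controls (edgeR adjusted p = 2.12e-05). Pim1, a kinase induced by cytokines, rose 7.81-fold, and Mcl1, a survival gene, rose 2.88-fold. Cxcr4, the receptor that holds progenitors in the marrow, fell 4.06-fold, to 72.4 ± 9.02 from 294 ± 39.7 CPM. Cd34 and Jak1 did not pass, with log2 fold changes of 0.11 and 0.40 (edgeR adjusted p = 0.721 and 0.0514). Picked after their values were seen, Il2rg, the receptor chain shared with IL-7, rose 3.11-fold, and Bcl2 fell 6.66-fold.

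Of 21 tested genes of pre-B and B cell receptor signalling 4 rose and 7 fell (19.0% and 33.3%, against 11.6% and 14.2% of all genes tested). The median log2 fold change was -0.60. Without control library 3, 4 fell. The 4 that rose, Dapp1, Plcg2, Btk and the lipid kinase gene Pik3cd, also act in other blood cells. Dapp1, an adaptor, stood at 405, 564 and 597 CPM in AML1/ETO and at 104 to 177 CPM in the controls. Plcg2, a phospholipase, rose 2.33-fold and the kinase Btk 2.12-fold. Cd72, a B cell coreceptor, fell 6.15-fold, to 7.96 ± 3.68 from 48.9 ± 9.79 CPM (edgeR adjusted p = 0.000359). Inpp5d and Syk, the most abundant members that did not pass, had log2 fold changes of 0.10 and -0.43. Named after their values were seen, Igll1, the partner of VPREB1 in the surrogate light chain, was at least 29.9-fold lower, with 91, 64, 259, 19 and 105 control reads and none in AML1/ETO. Cd79a, a signalling chain of the receptor, had none either, against 182, 49, 233, 0 and 50 control reads.

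Recombination needs end-joining proteins besides RAG and terminal transferase. Of 15 genes listed for recombination and end joining together, none rose and 3 fell (20%). Over all genes tested 11.6% rose and 14.2% fell, so the 3 are near the general share. The median log2 fold change was -0.08. The end-joining genes Xrcc5, Xrcc6, Prkdc, Dclre1c, Lig4, Xrcc4 and Nhej1 were not among those that fell. Hmgb2, a DNA-bending cofactor of RAG, fell 2.85-fold, to 116 ± 47.3 from 331 ± 75.9 CPM (edgeR adjusted p = 0.00223). Ung, a uracil glycosylase, fell 4.24-fold, and the histone gene H2afx fell 2.04-fold. Hmgb1 and Trp53bp1 did not pass, at log2 fold changes of 0.26 and -0.08. The Ku gene Xrcc6 stood at 62.1 against 64.1 CPM and did not pass either (edgeR adjusted p = 0.914). It was chosen after its values were seen.

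Of 27 genes of T cells, NK cells and innate lymphoid priming only 13 had enough reads to test. Of these 3 rose and 4 fell (23.1% and 30.8%, against 11.6% and 14.2% of all genes tested). Without AML1/ETO library 1, 1 rose. The median log2 fold change was -2.65, or -1.89 with genes at 0 held at their bound. Lat, an adaptor of T cells and mast cells, stood at 158 to 174 CPM in AML1/ETO and 37.4 to 64.6 CPM in the controls. Mast cell genes rose in the same libraries, as given above, and their part in this value was not tested. Nkg7, a cytotoxic granule gene, fell 15.1-fold, Lck, a T cell kinase, fell 6.44-fold, and the chemokine gene Ccl5 was at least 30.3-fold lower. Rora and Thy1 did not pass (edgeR adjusted p = 0.751 and 0.114). The T cell receptor components Cd3e, Cd3d and Cd3g had no read in any library.

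**Figure D4:**
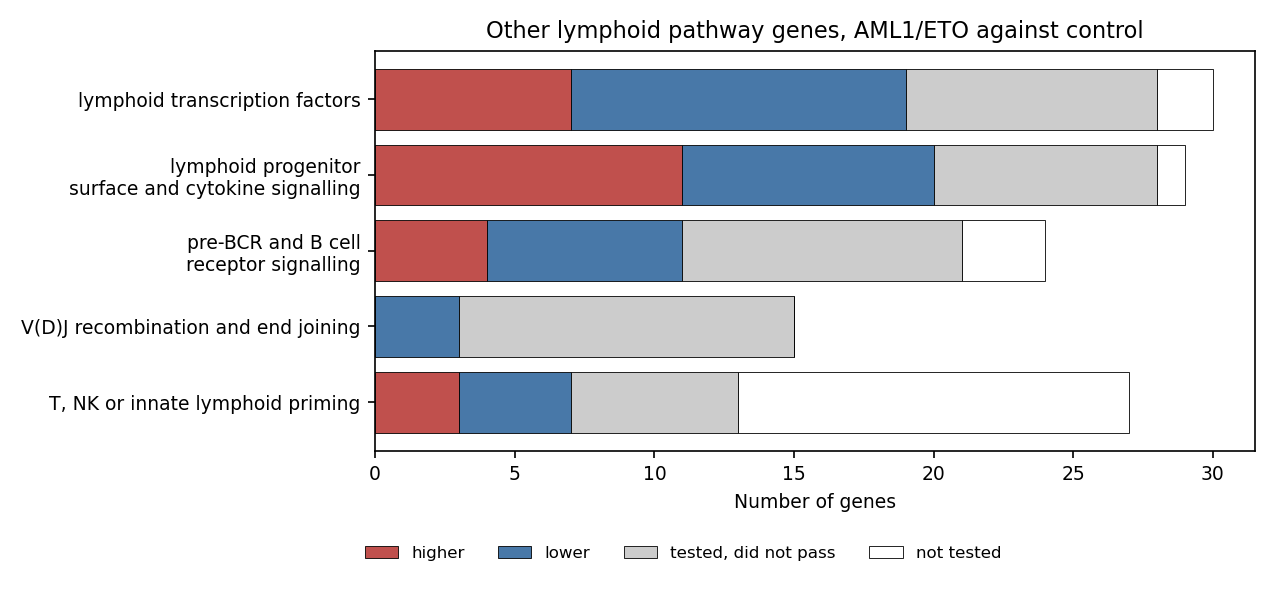
Number of genes (horizontal axis) in 5 lymphoid pathway lists that were higher, lower, tested without passing, or not tested in AML1/ETO against control. The lists with the most genes called higher and lower are the surface and cytokine genes, with 11 higher, and the transcription factors, with 12 lower.

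The library scaling left the calls of the 10 genes as they were but moved the counts over all genes. With library totals alone 1407 genes were called higher and 2712 lower, against 1734 and 2128 with TMM. The median over all genes, on the log2 scale, moved by -0.15 with library totals alone, and the share of risen among called genes went to 34.2% from 44.9%. Flt3 and Dntt passed as higher under each of the 4 scalings, with log2 fold changes of 0.73 to 0.95 for Flt3 and 1.42 to 1.61 for Dntt. Ighm, Rag1, Ebf1, Pax5 and Vpreb1 passed as lower under the same 4.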

How the data were processed

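RNA-seq read counts came from 3 AML1/ETO and 5 control libraries, grouped by the titles in the labels. The deposited values are raw counts per gene, with 1 column per library, no pooling and 0 sample columns unused. Per the submitters' processing notes, reads were handled with HISAT2 2.0.5 and featureCounts 1.5.0-p3 on mm10. The gene annotation, use of strand and treatment of multiply aligned reads are not stated there. Gene coordinates and exon lengths came from GENCODE release M21 (GRCm38), which matched 54495 of 54532 identifiers. The raw counts entered edgeR 4.0.16 (R 4.3.3). There filterByExpr left 15009 genes, scaling was by TMM, and genotype was the single term of a two-sided quasi-likelihood test on the 8 libraries. The biological coefficient of variation was 72.6%. Standard errors were derived from the quasi-likelihood F. A group without reads was given a floor of 3 reads per library. The procedure was tested on simulated negative binomial counts. No zeros were added to them, so that test does not cover the frequent zeros of scarce genes described above. The members and lists were chosen with earlier results of these data known. From each list the text names up to 4 called genes with the smallest p and up to 2 abundant ones that did not pass; others are marked. Genes of like pattern were ranked by log2 CPM with a prior count of 2, leaving out sex-linked markers and the other classes named with that result. Alternatives were DESeq2 1.42.0, limma-voom (limma 3.58.1), 3 other scalings, 2 other filters, each library left out, both first libraries left out, X and Y genes left out, and the replicate number as a block.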

Additional observations from a re-analysis of the deposited data

How the results depend on the processing

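Of the 10 genes, 2 were called higher and 5 lower, and Flt3 and Ighm passed in each of the 19 alternatives run. When a library was left out, 2 to 3 genes were called higher and 4 to 6 lower, and over all genes 1385 to 1752 higher and 1537 to 2287 lower. With limma-voom 3 of the 10 were called lower, Rag1 and Vpreb1 having missed the threshold, and 7 lymphoid transcription factors fell in place of 12. Replicate numbers are shared by the groups, but same-numbered libraries did not deviate together (r from -0.0390 to 0.0388 over 3 pairs). With 3 pairs, and deviations taken from means of few libraries, these values cannot decide whether same-numbered libraries shared a batch. The labels do not say. With the replicate block over libraries 1 to 3, which also leaves out control libraries 4 and 5, 1 of the 10 (Flt3) was called higher and 2 (Rag1 and Ighm) lower, Ebf1 (adjusted p = 0.149), Pax5 (0.166) and Vpreb1 (0.108) not passing, and over all genes 1043 higher and 939 lower. The same 6 libraries without the block, chosen after seeing the data, gave 1 higher and 5 lower among the 10, and 1108 lower over all genes. With a floor of 3 reads over the group in place of 3 per library, the least folds were 183 for Rag1, 77.1 for Vpreb1, 60.0 for Ebf1 and 50.2 for Pax5. The order of levels per length was the same with RPKM. Zeros among scarce genes were frequent in AML1/ETO and in control library 1, and limit what a count of 0 shows there. Their cause was not tested, and library totals were alike: control library 1 had 16374232 reads and control library 2, with the smallest share of zeros, 16745356.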

Other observations

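Flt3l, the gene of the FLT3 ligand, was counted 239, 368 and 68 times in AML1/ETO libraries 1, 2 and 3, against 147, 137, 145, 71 and 144 times in the controls. It did not pass (15.2 ± 9.61 against 7.40 ± 1.84 CPM; SD, n = 3 and n = 5; edgeR adjusted p = 0.184), and AML1/ETO library 3 lay near the lowest control.

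Genes were ranked by how near their pattern over the 8 libraries was to that of a member. Unnamed gene models, pseudogenes, and immunoglobulin and T cell receptor segments were left out of the ranking. So were Y-linked genes, Xist, Tsix and the 10 members. By the root mean square difference of centred log2 CPM, the nearest to Flt3 were Abhd16a (0.122), Glul (0.123) and Tmem191c (0.165). Glul, which encodes glutamine synthetase, stood at 622 ± 92.2 CPM in AML1/ETO and 308 ± 50.2 CPM in the controls. For Dntt the nearest were Galns (0.356), Pced1b (0.366) and Aasdh (0.373). Il7r had no close match, the nearest being Cyp46a1 at 1.75. For Ighm the nearest of the genes ranked were Slc26a11 (0.813), Chac1 (0.879) and Vwf (0.962). Each was at 0 in all 3 AML1/ETO libraries, and they stood at 51.2, 39.4 and 40.3 CPM in the controls. The Y-linked Ddx3y, also at 0 in all 3 AML1/ETO libraries, was among the genes left out.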
